A study of Mus musculus with 4 samples.

Results

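Axin2, Nkd1, Nkd2, Rnf43, Znrf3, Apcdd1, Lgr5, Lgr6, Dkk3 and Wif1 are 10 genes that restrain or tune Wnt signaling at the membrane, outside the cell or in the cytoplasm. They were taken by symbol from the deposited gene table, each found once, as 10 of its 32479 genes. They were described in mouse epidermis with and without ceramide synthase 4 (CerS4). The data are single-cell transcriptomes of dorsal epidermis from 4 female C57BL/6N mice at P19, made with BD Rhapsody, which catches cells in microwells and gives the RNA molecules random barcodes, the unique molecular identifiers (UMIs). The labels call the 2 control mice WT. By the study's methods, control mice were CerS4fl/flK14Cre- and CerS4epi-/- mice, 2 here, CerS4fl/flK14Cre+. By this account all 4 carry the floxed gene and only the CerS4epi-/- mice carry Cre, under the keratin-14 promoter. That promoter is active in basal keratinocytes of the epidermis and its appendages. No group with Cre and an intact CerS4 gene was analysed here.

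Canonical Wnt signaling starts when a Wnt ligand joins a Frizzled receptor and an LRP co-receptor, which spares β-catenin from destruction and lets it act with TCF/LEF factors on target genes. Several targets feed back on the pathway. Axin2 is a scaffold of the complex that destroys β-catenin, Nkd1 and Nkd2 bind Dishevelled, and the ubiquitin ligases Rnf43 and Znrf3 remove Frizzled from the cell surface. Lgr5 and Lgr6 are receptors of R-spondins, which hold Rnf43 and Znrf3 in check. Apcdd1 is a membrane-bound inhibitor, Wif1 binds Wnt ligands outside the cell, and Dkk3 is a secreted relative of the Dickkopf inhibitors. In skin, Lgr5 is known from the lower bulge and the hair germ, Lgr6 from the upper follicle and the basal interfollicular epidermis (IFE), and Dkk3 from bulge stem cells.

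The promoters of Lgr6 and Nkd2 are shown because these are the members called lower in more than 1 class of cells below. For Nkd2 the call in follicle-like cells was thin and not independent of the filter on low counts, as described there. Both are the 250 bases before the transcription start in RefSeq on GRCm38.p6, read 5′ to 3′ on the strand of the gene, which is the minus strand for both.
Lgr6, chr1:135105277-135105526: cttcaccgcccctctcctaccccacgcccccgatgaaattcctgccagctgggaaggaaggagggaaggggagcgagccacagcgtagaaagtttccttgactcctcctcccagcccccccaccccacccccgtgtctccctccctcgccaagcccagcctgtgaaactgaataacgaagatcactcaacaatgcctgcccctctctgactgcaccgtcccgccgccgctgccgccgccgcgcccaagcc
Nkd2, chr13:73847632-73847881: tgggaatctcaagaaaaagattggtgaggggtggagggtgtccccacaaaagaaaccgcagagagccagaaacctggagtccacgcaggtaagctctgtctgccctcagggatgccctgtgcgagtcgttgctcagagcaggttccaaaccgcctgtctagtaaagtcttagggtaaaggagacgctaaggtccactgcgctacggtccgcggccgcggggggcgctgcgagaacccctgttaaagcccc
Neither holds CTTTGA or TCAAAG, the 6 letters of the TCF/LEF motif on either strand, so no base is in capitals. Of all 32851 RefSeq promoter windows of this length, 13.8% hold one of them. RefSeq promoters were found for 6 of the 10 members, in 7 windows, and 0 of the 7 held these letters. The shorter core CTTTG or CAAAG stood in 1 of the 7, in Wif1, against 48.6% of all windows. No match says only that these letters are not in the window. G and C made up 65.2% of the Lgr6 window and 58.4% of the Nkd2 window.

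On GRCm39 with Gencode vM39, Lgr6 lies on chromosome 1 (134911039 to 135033100, minus strand), Nkd2 on chromosome 13 (73966653 to 73995761, minus strand) and Dkk3 on chromosome 7 (111712904 to 111758760, minus strand). Lgr5 lies on chromosome 10 (115286216 to 115423685, minus strand) and Axin2 on chromosome 11 (108811169 to 108841609, plus strand). Axin2, Lgr5 and Lgr6 each overlap a gene of the count table on the other strand (Gm11670, A930009A15Rik and Gm10535), and Rnf43 overlaps 1110028F11Rik on its own strand. The study's methods name a counting mode that treats sense and antisense overlap apart and no change of its strand setting. How far reads of these pairs were mixed was not tested.

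With fewer than 1200 counts or more than 20% of mitochondrial origin left out, 7567 to 9086 cells per mouse remained, with medians of 3266 to 3884 counts per cell. Of barcodes with enough counts, 68 and 91 of the controls and 363 and 316 of the CerS4epi-/- mice were too rich in mitochondrial counts. The 2 mice of a genotype shared 0 barcodes, where 77.1 and 87.1 would be expected from their numbers, while mice of different genotypes shared 64 to 102, against 72.5 to 92.6 expected. The labels do not name the capture run. If the 2 mice of a genotype shared a run, run and genotype cannot be told apart. With 2 mice per genotype, p-values rest on the spread between the mice of a genotype. They would then leave out any spread between runs. The targeted gene Cers4 was mainly counted in 71 sebaceous gland-like cells (11 and 2 in the controls, 26 and 32 in the CerS4epi-/- mice), at 2880 and 3970 counts per 1000000 (CPM) in the controls and 293 and 438 in the CerS4epi-/- mice, lower as the labels say. Over all cells kept, Cers4 overlapped between genotypes.

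Cells were clustered without the Wnt genes and named from lists of marker genes. Of 34150 cells, 11770 were IFE basal-like (led by genes such as Smoc2 and Krt5), 12363 IFE suprabasal-like (Krt1, Mt4, Lce1c) and 6047 follicle-like, all in clusters of upper hair follicle markers (Krt79, Defb6, Klk10). A further 3161 cells formed a cluster led by Aldh3a1, Igfbp4, Fst, Spock2, Vsnl1 and Sostdc1 that is called the unnamed Igfbp4/Sostdc1 cluster. Its highest marker list was that of basal IFE, with 9 of 10 markers detected, but none of these stood among its 10 leading genes while Fst, of the outer bulge list, did, so it took no name. It was compared between genotypes after the data had been seen. T cell-like (457) and Langerhans cell-like (212) cells served as a check on free RNA. Levels are CPM, the counts of a gene per 1000000 counts of all genes in the cells of that set in 1 mouse, and they are compared between cells and mice but not between genes.

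By CPM, Axin2, Apcdd1, Rnf43, Znrf3 and Lgr6 were higher in basal-like cells and the unnamed cluster than in suprabasal-like cells of control mice. Suprabasal-like cells held more counts, at medians of 5387 and 5318 in the controls, against 3012 and 2836 in basal-like cells. Of suprabasal-like cells 21.6% ± 0.636 held an Axin2 UMI, against 21.2% ± 2.26 of basal-like cells (SD, n = 2). With cells thinned to equal depth, the shares were 6.05% ± 0.0778 against 8.86% ± 1.01. CPM here compares shares of counts and not copies per cell. Axin2 stood at 68.3 and 83.1 CPM in basal-like cells of the 2 controls, 54.6 and 56.5 in follicle-like, 39.1 and 38.9 in suprabasal-like cells, and 89.2 and 86.6 in the unnamed cluster. Apcdd1 stood at 149 and 187 CPM in basal-like, 85.4 and 84.4 in follicle-like and 48.8 and 47.6 in suprabasal-like cells, and at 290 and 271 in the unnamed cluster. For both genes the controls of neighbouring classes in this order did not overlap. By cluster the order was less clear for Axin2. It stood at 72.3 and 76.5 CPM in the suprabasal-like Krt1 and Mt4 cluster and at 77.8 and 73.4 in the follicle-like Defb6 and Krt79 cluster. The basal-like Ly6a cluster had 70.9 and 77.8 CPM. Apcdd1 had 98.4 and 102 CPM in the Krt1 and Mt4 cluster and 155 and 185 in the Ly6a cluster. In the controls the ligases Rnf43 and Znrf3 were also lowest in suprabasal-like cells among the 3 classes and the unnamed cluster. Over all 4 mice their suprabasal-like level was 31.3% to 45.7% (Rnf43) and 35.3% to 54.0% (Znrf3) of the basal-like level of the same mouse.

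Lgr6 was higher in basal-like cells than in the other 2 classes. Its suprabasal-like level was 2.38% to 3.82% of the basal-like level of the same mouse and its follicle-like level 7.71% to 14%. In the unnamed cluster it was 52.0% and 38.7% in the controls and 152% and 106% in the CerS4epi-/- mice. In T cell-like cells Lgr6 stood at 7.50% of the basal-like level over all mice, on 4 counts, and in Langerhans cell-like cells at 2.61%, on 1 count. The keratin Krt14, which both cell types lack, stood at 8.22% and 8.70%. Free RNA can give such shares. The suprabasal-like share of Lgr6 lay below the T cell-like share and around the Langerhans cell-like one, and the follicle-like share lay near or above the T cell-like one. Within the follicle-like class, the cluster led by Klk10 and Krt6a stood higher, at 23.6 and 31.5 CPM in the controls. Lgr5, its relative, stood at 10.7 and 11.8 CPM in basal-like, 11.3 and 10.6 in suprabasal-like and 15.8 and 12.9 in follicle-like cells of the controls. Among follicle-like clusters it was higher in the Klk10 and Krt6a cluster, at 25.9 and 33.9 CPM, than in the Defb6 and Krt79 cluster (14.2 and 9.41 CPM) and the 2310046K23Rik and Slurp2 cluster (11.4 and 3.5 CPM). Its T cell-like level was 78.2% of the basal-like level on 8.5 counts.

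Nkd2 ran the other way among the 3 classes. In the controls it stood at 8.70 and 9.13 CPM in suprabasal-like, 2.16 and 4.94 in follicle-like and 0.470 and 1.13 in basal-like cells. It held 0 counts in the T cell-like and the Langerhans cell-like cells, which allows up to 3.19 and 4.44 CPM by counting error alone. Within the suprabasal-like class the controls had 14.9 and 15.0 CPM in the cluster led by Kctd12 and Xpnpep1, 8.53 and 7.05 in the cluster led by F3 and Serpina12, 5.23 and 7.08 in the Krt1 and Mt4 cluster and 4.35 and 5.45 in the Lce1c cluster. Outside this class, an inner bulge-like cluster of the finer clustering had 16.8 and 16.7 CPM, on 4 and 4 counts.

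Dkk3 stood at 6.95 and 13.3 CPM in basal-like, 13.5 and 14.1 in follicle-like and 0.504 and 0.840 in suprabasal-like cells of the controls. The finer clustering placed it within the follicle. An outer bulge-like cluster of 553 cells, which included Lhx2 and Sox9 among its leading genes but was led by the inner bulge marker Krt6a, had 70.3 and 79.6 CPM in the controls, on 12 and 9 counts. Nkd1 and Wif1 were almost absent, with 6 and 9.33 counts over all 34150 cells. Wif1 had 0 counts in the basal-like cells, which allows up to 0.0713 CPM over the 4 mice, by counting error alone.

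**Figure D1:**
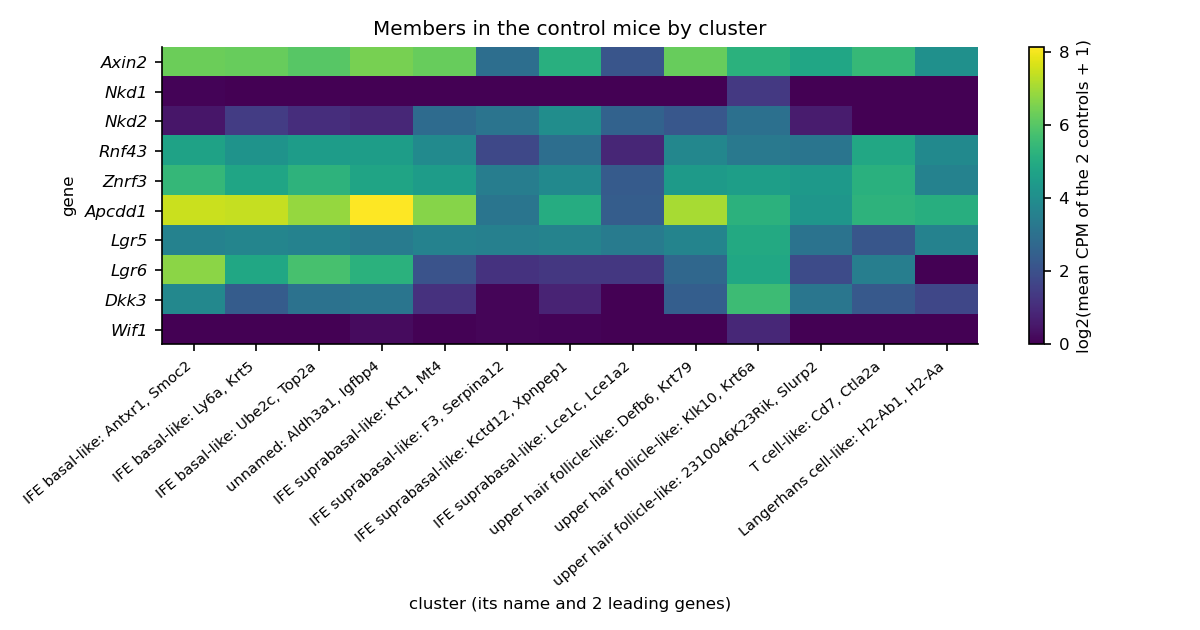
Mean level of each of the 10 members in the 2 control mice, as log2(CPM + 1), in each cluster of at least 180 cells. Columns are clusters with their name and 2 leading genes. Apcdd1, Axin2 and Lgr6 are high in the basal-like clusters and the unnamed cluster, Nkd2 in suprabasal-like clusters, and the rows of Nkd1 and Wif1 are near 0. Axin2 is about as high in the Krt1 and Mt4 and the Defb6 and Krt79 clusters as in the Ly6a cluster.

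Over the 12 named clusters with at least 20 cells in every mouse, the profile of Lgr6 was most like those of Col4a2 (Pearson r = 0.988), Col6a1 (r = 0.983) and Ntf3 (r = 0.982). Axin2 was most like Nudt7 (r = 0.983), Notch1 (r = 0.974) and 3110009E18Rik (r = 0.973). The profiles most like Nkd2 were those of Srgap1 (r = 0.897), Fxyd4 (r = 0.892) and Them7 (r = 0.878), and those most like Dkk3 were Ablim3 (r = 0.958), 1190005I06Rik (r = 0.926) and Palld (r = 0.921). Apcdd1 went with Pak6, Macrod1 and Dgka, Lgr5 with Tpgs1, Inf2 and 1700061I17Rik, Rnf43 with Snhg5, Hsf1 and Snx5, and Znrf3 with Apex2, Tdp2 and Ttc33. Among the members, Axin2 and Apcdd1 had r = 0.930, Axin2 and Znrf3 r = 0.903, and Nkd2 and Rnf43 r = -0.645. These are descriptions over clusters of the same 4 libraries, chosen as the best of 15378 genes.

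**Figure D2:**
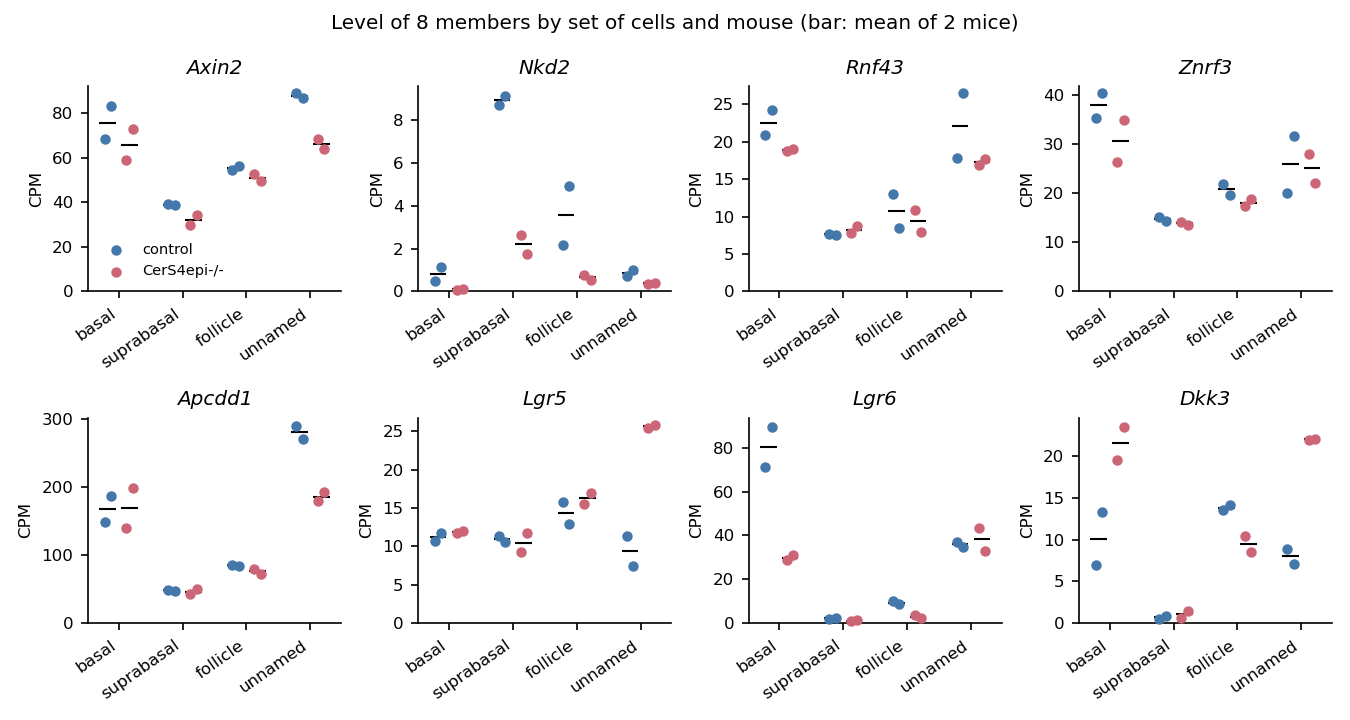
CPM of the 8 members with at least 50 counts, in basal-like, suprabasal-like and follicle-like cells and in the unnamed cluster. Each point is 1 mouse (blue control, red CerS4epi-/-) and each bar the mean of 2 mice. Lgr6 is lower in both CerS4epi-/- mice in basal-like cells, Nkd2 in suprabasal-like cells, and Dkk3 and Lgr5 are higher in the unnamed cluster.

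In basal-like cells, Lgr6 fell and Dkk3 rose in CerS4epi-/- mice. Lgr6 stood at 71.5 and 89.5 CPM in the controls and at 28.7 and 31.0 CPM in the CerS4epi-/- mice. Both CerS4epi-/- mice lay below both controls, at means of 80.5 ± 12.7 against 29.8 ± 1.57 (SD, n = 2 each), a 2.7-fold lower level. The fitted log2 fold change was -1.38 ± 0.29 (SE), with an adjusted p = 0.00125 in edgeR's quasi-likelihood test. The fall was present in each basal-like cluster. In the largest, led by Antxr1 and Smoc2, Lgr6 stood at 90.8 and 117 CPM against 39.1 and 42.4, in the Ly6a cluster at 23.3 and 32.0 against 6.60 and 4.90, and in the cycling cluster led by Ube2c and Top2a at 48.6 and 58.9 against 23.3 and 24.8.

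Fewer cells held an Lgr6 UMI as well. With each cell thinned to 1200 UMIs, which left out 4 control and 10 CerS4epi-/- cells as too shallow, 9.39% ± 1.71 of basal-like cells of the controls held one, against 3.58% ± 0.0778 in CerS4epi-/- mice (SD, n = 2). Unthinned, the shares were 20.4% ± 2.90 and 9.21% ± 0.566, with medians of 2836 to 3808 counts per cell. In T cell-like cells, at medians of 1540 to 1904 counts, the unthinned share was 0% to 3.03%.

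Dkk3 stood at 6.95 and 13.3 CPM in basal-like cells of the controls and at 19.6 and 23.5 CPM in those of the CerS4epi-/- mice. The groups did not overlap, and the controls lay further apart than the CerS4epi-/- mice. The log2 fold change of 1.12 ± 0.36 was just past the threshold (adjusted p = 0.0489, edgeR). Without control 1 it was 0.73 and without control 2 it was 1.68, each with 1 control left and so no spread between controls. It missed the threshold with DESeq2 size factors in place of TMM, with a mitochondrial limit of 10% and with classes by marker score. By cluster, Dkk3 stood at 8.61 and 16.9 against 24.5 and 31.7 CPM in the Antxr1 and Smoc2 cluster and at 5.80 and 8.95 against 21.4 and 16.9 in the Ube2c and Top2a cluster. In the Ly6a cluster, at 2.29 and 6.04 against 6.93 and 5.88 CPM, the groups overlapped.

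Of the 10 members, 7 passed the filter on low counts in basal-like cells, and 2 of the 7 were called, against 3.56% of the 12852 genes tested (2.28% higher and 1.28% lower). Axin2 stood at 68.3 and 83.1 against 58.9 and 72.9 CPM, with a log2 fold change of -0.16 ± 0.14 and an adjusted p = 0.566 in edgeR. Apcdd1 stood at 149 and 187 against 140 and 198 CPM (log2 fold change 0.06 ± 0.16) and Lgr5 at 10.7 and 11.8 against 11.7 and 12 CPM (0.12 ± 0.15). The groups of all 3 overlapped. The ligases Rnf43 (20.9 and 24.2 against 18.7 and 19 CPM) and Znrf3 (35.3 and 40.4 against 26.2 and 34.9 CPM) did not overlap but were not called, at log2 fold changes of -0.21 ± 0.13 and -0.27 ± 0.16. Without CerS4epi-/- 2, which leaves 1 CerS4epi-/- mouse, the log2 fold change of Znrf3 was -0.48. Without overlap were 4 of the 7 members, against 52.0% of all genes tested. Nkd2 was too low to test, with 5 and 13 counts in the controls and 1 in each CerS4epi-/- mouse.

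Markers of other cells moved with genotype in the basal-like class, some lists down and some up. The 10 outer bulge markers summed to 10500 and 10600 CPM in the controls and 8950 and 9830 in the CerS4epi-/- mice. The 14 suprabasal markers summed to 7370 and 8240 against 7070 and 6070. The 10 upper hair follicle markers summed to 339 and 324 CPM in the controls and 512 and 618 in the CerS4epi-/- mice, the 6 inner bulge markers to 75.4 to 98.4 against 179 to 215, and the 8 T cell markers to 62.7 to 67.1 against 83.0 to 133, each list with all its markers counted. Their part in the results was not tested. The 7 fibroblast markers, at 88.1 to 90.0 and 43.1 to 102 CPM, overlapped.

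In suprabasal-like cells, Nkd2 fell in CerS4epi-/- mice. It stood at 8.70 and 9.13 CPM in the controls, on 207.2 and 250 counts, and at 2.65 and 1.74 CPM in the CerS4epi-/- mice, on 62 and 28 counts. Both groups were tight, at 8.92 ± 0.305 and 2.20 ± 0.643 CPM (SD, n = 2 each), 4.06-fold apart. The log2 fold change was -1.96 ± 0.42 (adjusted p = 0.000742, edgeR), and it stayed past the threshold in each of the 16 alternatives, at -2.35 to -1.71. Those that left out a mouse had 1 mouse in a group, where a kept call says little. The fall stood in each of the 4 suprabasal-like clusters, from 14.9 and 15.0 to 6.01 and 3.19 CPM in the Kctd12 cluster and from 5.23 and 7.08 to 1.25 and 0.822 CPM in the Krt1 and Mt4 cluster.

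Axin2 stood at 39.1 and 38.9 CPM in suprabasal-like cells of the controls and at 29.8 and 34.3 CPM in those of the CerS4epi-/- mice. The groups did not overlap, and the log2 fold change of -0.27 ± 0.11 did not pass the threshold (adjusted p = 0.0782, edgeR). It passed with no filter on low counts, with a replicate block and with a mitochondrial limit of 10%. Lgr6 was called (1.85 and 2.28 against 0.685 and 1.18 CPM, log2 fold change -1.18 ± 0.42, adjusted p = 0.0445 in edgeR), at a share of the basal-like level below that of T cell-like cells and around that of Langerhans cell-like cells, and lost the call in 11 of 16 alternatives.

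Together 2 of the 8 members tested in suprabasal-like cells were called, both lower, against 11.4% of 13957 genes (7.03% higher and 4.36% lower). Of the others, Apcdd1, Lgr5, Znrf3 and Rnf43 had log2 fold changes of -0.07 to 0.14, and Dkk3, at 0.504 and 0.840 against 0.599 and 1.45 CPM, had 0.51 ± 0.50. Here 5 of the 8 members did not overlap between genotypes, against 57.9% of all genes. The 10 upper hair follicle markers summed to 1170 and 1300 CPM in the controls and 1750 and 1830 in the CerS4epi-/- mice, and the part of this in the results was not tested.

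In follicle-like cells, Lgr6 and Nkd2 fell. Lgr6 stood at 9.99 and 8.47 CPM in the controls and 3.44 and 2.39 CPM in the CerS4epi-/- mice, on 37, 24, 31 and 18 counts. The CerS4epi-/- mice lay below both controls, and the log2 fold change was -1.575 ± 0.44 (adjusted p = 0.00565, edgeR). By cluster, Lgr6 stood at 23.6 and 31.5 against 3.97 and 2.65 CPM in the Klk10 and Krt6a cluster and overlapped between genotypes in the other two. Nkd2 stood at 2.16 and 4.94 CPM in the controls and 0.778 and 0.531 CPM in the CerS4epi-/- mice, on 8, 14, 7 and 4 counts. Its log2 fold change was -2.24 ± 0.73 (adjusted p = 0.0218, edgeR). Nkd2 passed the filter on low counts only through the controls, where it is higher, so its entry to the test was not independent of the fall. With no filter on low counts it was also called. Both calls were thin. Leaving out control 1 or control 2 took away the call of Lgr6, leaving out any 1 mouse took away that of Nkd2. With a mitochondrial limit of 10%, Lgr6 lost its call (-1.51, adjusted p = 0.0651, edgeR) and Nkd2 was too low to test, and with classes by marker score Lgr6 stood at -0.84, still called. The median mitochondrial share of follicle-like cells was 7.39% and 6.87% in the controls and 9.79% and 9.44% in the CerS4epi-/- mice, and its part in the results was not tested.

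Dkk3 stood at 13.5 and 14.1 CPM in follicle-like cells of the controls and 10.4 and 8.49 CPM in those of the CerS4epi-/- mice, without overlap and without a call (log2 fold change -0.47 ± 0.23, adjusted p = 0.164, edgeR). Axin2 (54.6 and 56.5 against 52.5 and 49.5 CPM), Apcdd1 (85.4 and 84.4 against 80.0 and 72.8 CPM) and Lgr5 (15.8 and 12.9 against 15.5 and 17.0 CPM) had log2 fold changes of -0.04 ± 0.11, -0.07 ± 0.10 and 0.24 ± 0.19. Of the 8 members tested 2 were called, both lower, against 15.4% of 11843 genes (8.73% higher and 6.68% lower), and 6 of the 8 did not overlap between genotypes, against 59.6% of all genes. Nkd2, which entered the test only through the controls, is among the 2. The 10 upper hair follicle markers summed to 27000 to 31400 CPM in the controls and 40900 to 48400 in the CerS4epi-/- mice, and the 14 suprabasal markers to 28900 to 33000 against 18900 to 21600. The 10 outer bulge markers summed to 5850 to 6220 against 3680 to 4200, and the 6 inner bulge markers to 1550 to 1830 against 2070 to 3770. Their part in the results was not tested.

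The makeup of the follicle-like class differed between genotypes. The cluster led by Klk10 and Krt6a held 17.2% and 18.5% of the class in the controls and 27.2% and 32.6% in the CerS4epi-/- mice, and the cluster led by 2310046K23Rik and Slurp2 held 22.1% and 23.0% against 9.39% and 11.3%. The cluster led by Defb6 and Krt79 held 58.0% to 61.6% in all mice. With equal cell numbers per cluster, the log2 fold change of Lgr6 was -1.67 (adjusted p = 0.0143, edgeR) and Nkd2 was too low to test. This evened the cell numbers of the main clusters and not the makeup within a cluster. The finer clustering split the bulge-like cells off, with 64 and 57 inner bulge-like cells in the controls against 33 and 37, and 59 and 41 outer bulge-like cells against 209 and 244. The outer bulge name was given in this clustering only. With no Harmony, a cluster led by Cald1, Krt6a and Gpx2 (34 and 19 cells against 357 and 358) was named upper hair follicle. With another seed, a cluster led by Krt6a and Serpinb11, with Lhx2 among its leading genes, was named inner bulge. The part of these shifts in cell numbers in the fall of Lgr6 was not tested.

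**Figure D3:**
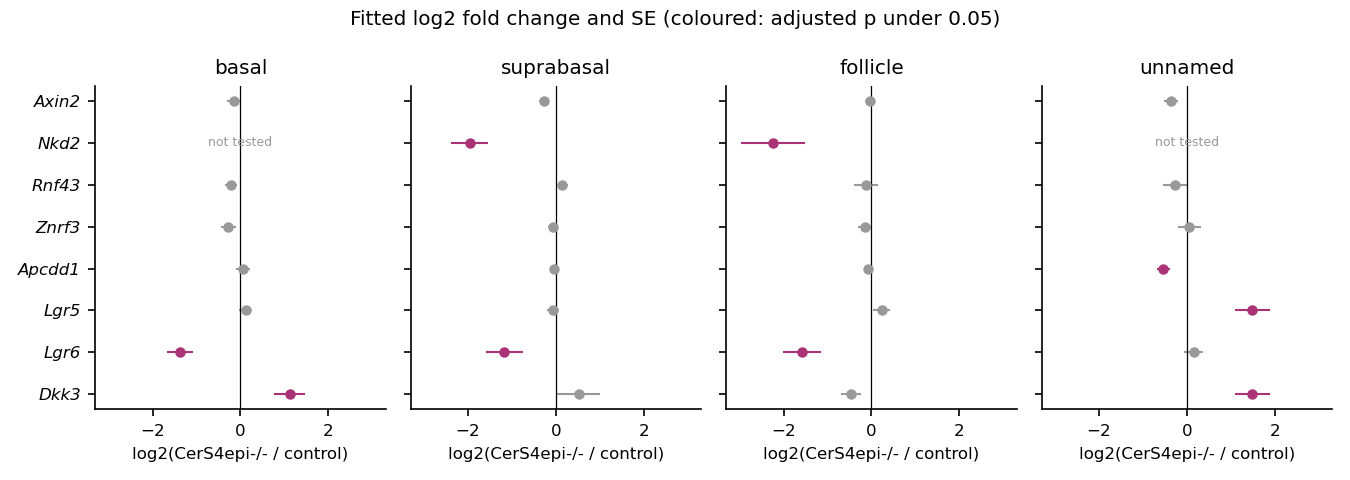
Fitted log2 fold change of CerS4epi-/- against control with its SE, for the 8 members with at least 50 counts in all, in the 3 classes and the unnamed cluster. Coloured points have an adjusted p under 0.05 and grey points do not. Lgr6 lies left of 0 in the 3 classes and near 0 in the unnamed cluster, while Dkk3 lies right of 0 in basal-like cells and the unnamed cluster and left of it in follicle-like cells.

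The genotype effect on Dkk3 differed between classes. In follicle-like minus basal-like cells, the difference of the log2 fold changes was -1.645 (adjusted p = 0.00556, edgeR with mouse as a block), with Dkk3 the 1 member called of 8, against 6.56% of 14187 genes. Without control 1, whose basal-like level was the lowest, the difference was -1.22 and not past the threshold (adjusted p = 0.162). For suprabasal-like minus basal-like cells 0 of 8 members were called, and 0 had an unadjusted p under 0.05, against 1.04% of genes called. For Lgr6 the difference from basal-like cells was 0.21 in suprabasal-like and -0.22 in follicle-like cells, at adjusted p = 0.853 and 0.778 in edgeR.

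The finer clustering showed where Dkk3 was lower. In the upper hair follicle-like cluster led by Klk10 and Cst6 (1350 cells) it stood at 29.6 and 66.9 CPM in the controls, on 18 and 23 counts, and at 13.7 and 9.38 CPM in the CerS4epi-/- mice, on 36 and 23 counts. In the outer bulge-like cluster it stood at 70.3 and 79.6 CPM in the controls and 34.4 and 27.6 CPM in the CerS4epi-/- mice, on 12, 9, 32 and 30 counts. In both clusters the CerS4epi-/- mice lay below both controls. They did so too in the cluster led by 2310046K23Rik and Slurp2, at 10.5 and 6.02 against 4.14 and 3.53 CPM, on 10, 4, 5.25 and 3 counts. In the 3 upper hair follicle-like clusters other than that of Klk10 no mouse was above 10.5 CPM, and all 8 values in the clusters led by Defb6 and by Krt79 lay between 0.810 and 7.83 CPM.

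Lgr5, which marks stem cells of the lower bulge, stood at 7.81 and 61.9 CPM in the outer bulge-like cluster of the controls and at 41.5 and 32.8 CPM in that of the CerS4epi-/- mice. The controls lay on both sides of the CerS4epi-/- mice, and they rest on 1.33 and 7 counts from 59 and 41 cells, against 38.7 and 35.6 counts from 209 and 244 cells. Lgr6 stood at 23.4 and 35.4 against 3.22 and 0.921 CPM there, on 4, 4, 3 and 1 counts. The inner bulge-like cluster of 191 cells (33 to 64 per mouse) had Lgr6 at 42.0, 37.5, 28.6 and 39.0 CPM and Nkd2 at 16.8, 16.7, 28.6 and 5.57 CPM, both overlapping between genotypes. These clusters were described without a test.

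**Figure D4:**
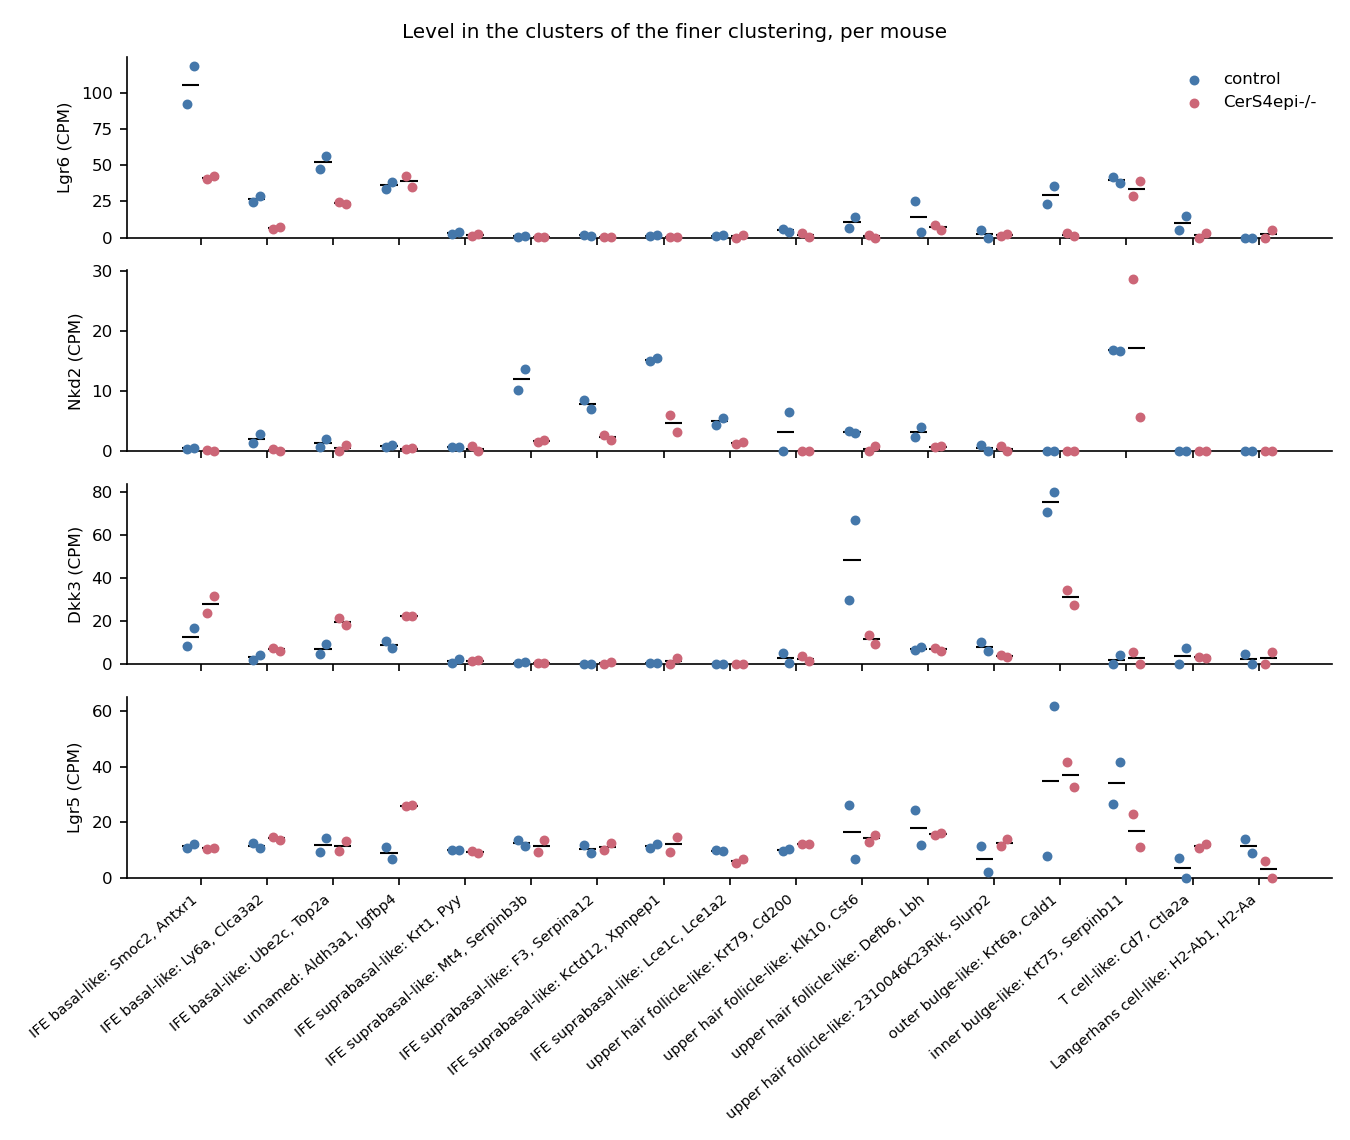
CPM of Lgr6, Nkd2, Dkk3 and Lgr5 in the clusters of the finer clustering with at least 180 cells. Each point is 1 mouse (blue control, red CerS4epi-/-) and each bar the mean of 2 mice. Lgr6 is lower in the CerS4epi-/- mice in the 3 basal-like clusters, Nkd2 in the suprabasal-like ones other than that led by Krt1 and Pyy, where it overlaps, and Dkk3 is higher in basal-like and lower in the Klk10 and outer bulge-like clusters.

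In the unnamed Igfbp4/Sostdc1 cluster, Dkk3 and Lgr5 rose and Apcdd1 fell in CerS4epi-/- mice, while Lgr6 overlapped between genotypes. Dkk3 stood at 8.92 and 7.13 CPM in the controls, on 12 and 7 counts, and at 22.0 and 22.1 CPM in the CerS4epi-/- mice, on 60 and 53 counts (log2 fold change 1.49 ± 0.40, adjusted p = 0.00720, edgeR). Lgr5 stood at 11.4 and 7.47 CPM in the controls and 25.4 and 25.9 CPM in the CerS4epi-/- mice, on 15.3, 7.33, 69.3 and 62.3 counts (1.49 ± 0.39, adjusted p = 0.00562, edgeR). Apcdd1 stood at 290 and 271 against 179 and 193 CPM (-0.54 ± 0.14, adjusted p = 0.00660, edgeR). In each of the 3 the groups did not overlap. Dkk3 lost its call with no Harmony (1.33, adjusted p = 0.0526), 2000 counts (1.24, 0.0769) and a 10% mitochondrial limit (1.28, 0.144), Apcdd1 with no Harmony (-0.39, 0.0808) and a 10% mitochondrial limit (-0.42, 0.0783), and Lgr5 with 2000 counts (1.2, 0.0686), all adjusted p in edgeR.

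Lgr6 stood at 37.2 and 34.6 CPM in the unnamed cluster of the controls and at 43.6 and 32.9 CPM in that of the CerS4epi-/- mice, with a log2 fold change of 0.15 ± 0.22 (adjusted p = 0.770, edgeR). Axin2, at 89.2 and 86.6 against 68.2 and 63.7 CPM, did not overlap and was not called (-0.36 ± 0.16, adjusted p = 0.193, edgeR). Of the 7 members tested 3 were called, 2 higher and 1 lower, against 5.96% of 10044 genes (3.0% higher and 2.97% lower), and 5 of the 7 did not overlap, against 49.5% of all genes.

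The effect of genotype in the unnamed cluster differed from that in basal-like cells for 3 of the 7 members, against 2.82% of 12370 genes. The difference of the log2 fold changes was 1.53 for Lgr6 (adjusted p = 5.06e-06), 1.38 for Lgr5 (adjusted p = 0.0156) and -0.58 for Apcdd1 (adjusted p = 0.00603), all in edgeR with mouse as a block. For Lgr5 the difference was not past the threshold without control 2 (1.06, adjusted p = 0.295), and for Apcdd1 not without control 1 (-0.34, adjusted p = 0.450) or without CerS4epi-/- 2 (-0.39, adjusted p = 0.122). Lgr5 also missed it with no Harmony, 2000 counts and equal cell numbers (adjusted p = 0.0742, 0.273 and 0.0843, edgeR), and Apcdd1 with no Harmony, 2000 counts and a 10% mitochondrial limit (adjusted p = 0.193, 0.0544 and 0.143). In this cluster the 10 upper hair follicle markers summed to 870 to 1140 CPM in the controls and 1800 to 2280 in the CerS4epi-/- mice, and the 10 outer bulge markers to 10500 to 10800 against 8320 to 9100. The cluster held 613 and 475 cells in the controls and 1083 and 990 in the CerS4epi-/- mice. Basal-like cells went the other way, with 3174 and 3581 against 2779 and 2236. In both sets the median mitochondrial share was higher in both CerS4epi-/- mice than in both controls. In basal-like cells it was 9.64% and 9.57% against 10.8% and 10.8%. The part of these shifts in the results was not tested.

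T cell-like cells held members too. Over all mice Axin2 stood at 48.9 CPM on 46 counts, 69.2% of the basal-like level, Rnf43 at 37.2 CPM on 35 counts and Znrf3 at 37.2 CPM on 35 counts, or 178% and 109% of the basal-like level. Krt14 and Krt5 stood at 8.22% and 9.12%, so these 3 were far above the share that the keratins gave. Apcdd1, at 17.9%, and Dkk3, at 20.6% on 3 counts, were nearer to it.

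Of 100 other genes of the pathway, grouped as feedback genes and inhibitors, ligands and R-spondins, receptors, cytoplasmic and nuclear components and target genes, 71 were tested in basal-like cells, where 8 rose and 1 fell. That is 12.7%, against 3.56% of all genes tested, and the median log2 fold change was 0.03 against 0.00183 over all genes. Sostdc1, which encodes a secreted inhibitor of Wnt and BMP signals, rose from 59.0 and 56.7 to 107 and 119 CPM (log2 fold change 1.02 ± 0.21). Rspo3, an R-spondin and so a ligand of Lgr5 and Lgr6, fell from 15.8 and 12.2 to 1.35 and 3.23 CPM (-2.65 ± 0.62). Wnt11, a ligand of noncanonical signaling, rose from 0.939 and 1.56 to 4.89 and 4.72 CPM, Cd44 from 149 and 122 to 236 and 222 CPM, and Id2 from 38.7 and 30.0 to 56.1 and 66.6 CPM. Lbh rose from 0.470 and 0.779 to 3.62 and 3.61 CPM. It passed the filter on low counts only through the CerS4epi-/- mice, where it is higher, and is counted among the 8. The remaining 3 were Porcn, Fzd7 and Tcf7l1, with 62 not called.

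In suprabasal-like cells 9 of 70 rose and 2 fell (15.7% against 11.4% of all genes, median log2 fold change 0.10). Rspo3 fell from 7.43 and 5.48 to 0.685 and 0.841 CPM (-3.04 ± 0.62), and Wls, the carrier that brings Wnt ligands to the cell surface, from 84.1 and 90.8 to 61.9 and 69.8 CPM (-0.40 ± 0.12). Cd44 rose from 28.3 and 23.1 to 74.8 and 65.2 CPM and Wnt11 from 0.378 and 0.292 to 1.80 and 3.12 CPM. Wnt11 passed the filter on low counts only through the CerS4epi-/- mice, where it is higher, and is counted among the 9. Ctnnbip1, which keeps β-catenin from TCF factors, rose from 278 and 344 to 451 and 430 CPM, and the co-repressor Tle3 from 43.5 and 41.7 to 53.1 and 61.7 CPM.

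In follicle-like cells 10 of 66 rose and 4 fell (21.2% against 15.4% of all genes, median log2 fold change 0.01). Sox4 rose from 15.4 and 22.2 to 105 and 99.8 CPM (2.55 ± 0.44) and Lbh from 51.1 and 39.9 to 155 and 157 CPM. Shisa2, which retains Frizzled inside the cell, rose from 14.9 and 11.3 to 33.9 and 32.1 CPM, and the receptor Fzd6 from 35.9 and 34.2 to 59.3 and 67.3 CPM. Bambi fell from 13.8 and 16.2 to 3.56 and 3.32 CPM (-2.03 ± 0.45) and Dkkl1 from 128 and 153 to 84.8 and 69.8 CPM.

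In the unnamed cluster 7 of 64 rose and 6 fell (20.3% against 5.96% of all genes, median log2 fold change -0.02). Wnt5a, a ligand of noncanonical signaling, fell from 23.0 and 22.4 to 1.83 and 1.25 CPM (-3.75 ± 0.71). It passed the filter on low counts only through the controls, where it is higher, and is counted among the 6. Ccnd1 fell from 225 and 218 to 131 and 93.6 CPM and the receptor gene Tnfrsf19 from 130 and 133 to 86.5 and 44.5 CPM. Porcn, which acylates Wnt ligands, rose from 8.18 and 16.3 to 30.1 and 42.0 CPM, Lbh from 9.66 and 5.10 to 26.0 and 42.4 CPM and Ccnd2 from 844 and 721 to 962 and 1050 CPM. Lbh needed the CerS4epi-/- mice to pass the filter, as control 2 was too low.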

How the data were processed

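Single-cell RNA of the dorsal epidermis was measured with BD Rhapsody in 4 mice, 2 control and 2 CerS4epi-/-, taken as groups from the labels of the samples. Per the study's methods and the submitters' processing notes, the authors trimmed reads with fastp 0.23.2 and counted them with STARsolo (STAR 2.7.10a) on GRCm39 with a Gencode annotation. The deposited values are estimated counts of UMIs (expected counts) per gene and barcode, not normalized and not filtered for cells, with reads that match several genes shared by expectation maximization. Sharing leaves fractions in the counts, so sums were rounded before any test.

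Barcodes were cells (34150) if they held 1200 counts or more, no more than 20% of them mitochondrial. Scrublet called 2 doublets among them, too few for a working caller, so doublets remain in the data. Cells were scaled with scran 1.30.0. The 3000 most variable genes, less the 18 of them on the Wnt lists, gave 100 principal components, which were aligned between mice with a rewritten Harmony and clustered with Leiden (30 neighbours, resolution 0.8, scanpy 1.11.5). A cluster was named from its highest list of markers among those with at least 3 markers detected. It stayed unnamed where another class had as many markers among the 10 leading genes. These limits, the members and all lists were chosen with earlier results of these data known.

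For each class and mouse the cells' counts were added up. After filterByExpr and TMM scaling, edgeR 4.0.16 in R 4.3.3 gave quasi-likelihood p-values, adjusted over all genes tested by Benjamini and Hochberg's method (threshold 0.05). The study's methods tested random groups of cells with DESeq2. Here the mouse was the replicate, and DESeq2 1.42.0 was an alternative. Differences of the genotype effect between classes were tested in 1 fit with mouse as a block. The SE of a log2 fold change is the one its p-value implies. Levels are counts per 1000000 counts of a class (CPM). On simulated counts, the test recovered 75%, 74% and 60% of changed genes of log2 size 1 in IFE basal-like, IFE suprabasal-like and follicle-like cells. At log2 size 2 the test recovered 99%, 99% and 98%. Of all calls, with both sizes in 1 run, 5.95%, 0.575% and 1.86% were false. The simulation gave all genes the same spread between mice beyond counting error. It changed only genes with ample counts and held no difference between runs. Whether these rates hold for the measured counts, or for members with few counts, was not tested. Genes named are the 10 members, in each class at most 6 of the other Wnt genes past the threshold by smallest p, and the 3 genes most like each member. The other settings tried were DESeq2 size factors, no filter, leaving out 1 mouse at a time, a replicate block, as many cells per cluster in each mouse, 2000 counts or 10% mitochondrial counts as the limit, the 5% of cells with the highest Scrublet score left out, resolution 1.2, another seed, no Harmony and classes by marker score.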

Additional observations from a re-analysis of the deposited data

Results flagged for a closer look

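Dkk3 is given here because its response to genotype differed between follicle-like and IFE basal-like cells, by -1.645 on the log2 scale (adjusted p = 0.00556, edgeR with mouse as a block). Dkk3 was higher in both CerS4epi-/- mice in basal-like cells and lower in both in follicle-like cells. The fall in follicle-like cells was not called (adjusted p = 0.164, edgeR). Without control 1 the difference between the classes shrank to -1.22.

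For 3 members the response in the unnamed Igfbp4/Sostdc1 cluster differed from that in basal-like cells. The difference was 1.53 for Lgr6, 1.38 for Lgr5 and -0.58 for Apcdd1 on the log2 scale, by the same test, which was added after the data had been seen. Of 13 alternatives, the difference lost its call in 4 for Lgr5 and in 5 for Apcdd1. For Lgr6 it kept the call in all 13.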

How the results depend on the processing

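Of 519 alternatives over 34 fold changes and differences of members, 457 kept direction and side of the threshold, 38 lost a call, 4 gained one and 20 reversed. The falls of Lgr6 in basal-like cells and Nkd2 in suprabasal-like cells kept their call in all 16 alternatives run. Where a setting moved a result, the cause was not tested. Settings on the unnamed cluster and the differences between classes were added after the data had been seen.

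Members called in basal-like cells went from 2 to 1 with DESeq2 size factors, classes by marker score and 10% mitochondrial counts. In suprabasal-like cells 2 became 1 with DESeq2, resolution 1.2, another seed, no Harmony, 2000 counts, Scrublet scores left out and equal cell numbers, and 1 to 1 with a mouse left out. In follicle-like cells 2 became 1 with DESeq2, marker score and equal cell numbers, 0 at 10% mitochondrial counts and 0 to 1 with a mouse left out. In the unnamed cluster 3 became 1 with DESeq2, which gave Dkk3 and Lgr5 no adjusted p, no Harmony, 2000 counts and 10% mitochondrial counts. Differences from basal-like cells went from 1 to 0 without control 1 in the follicle, and from 3 to 1 in the unnamed cluster with no Harmony or 2000 counts.

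Genes called in basal-like cells went from 458 to 1307 with no filter, 245 at 10% mitochondrial counts and 462 to 846 with a mouse left out. In suprabasal-like cells 1589 became 2591 with no filter and 1047 with DESeq2, in follicle-like cells 1825 became 876 with DESeq2 and 886 with equal cell numbers, and in the unnamed cluster 599 became 199 with DESeq2 and 285 with no Harmony. With a mouse left out, the counts ran from 767 to 1243 in suprabasal-like cells (767 without CerS4epi-/- 2, 997 without control 1), from 372 to 1760 in follicle-like cells (432 without control 1, 372 without control 2) and from 500 to 902 in the unnamed cluster.

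The replicate numbers are shared by the groups, and the deviations of same-numbered mice correlated at 0.183, 0.173, -0.0656 and -0.00997 in the 4 sets, over 2 pairs. Whether same-numbered mice share more than a number was not tested. With a replicate block, 1342 genes were called in basal-like, 3241 in suprabasal-like cells and 329 in the unnamed cluster, and Axin2 was called in suprabasal-like cells.

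Reversals were all of fold changes that were not called. Lgr5 reversed in basal-like cells to -0.014 with another seed and -0.030 with no Harmony, in suprabasal-like cells to 0.043 at 10% mitochondrial counts and in follicle-like cells to -0.011 with equal cell numbers. Apcdd1 reversed in follicle-like cells to 0.044 with 2000 counts. In the unnamed cluster Znrf3 reversed to -0.069 with no Harmony, -0.076 with 2000 counts and -0.036 with equal cell numbers, and Lgr6 to -0.10 with no Harmony. With a mouse left out, Apcdd1 ran from -0.21 to 0.29 in basal-like and -0.15 to 0.053 in suprabasal-like cells, where Lgr5 ran from -0.21 to 0.10 and Dkk3 from -0.15 to 1.07, and Rnf43 from -0.39 to 0.25 in follicle-like cells. In the unnamed cluster Rnf43 ran from -0.57 to 0.0094, Znrf3 from -0.27 to 0.39 and Lgr6 from -0.070 to 0.34.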
